A study of Drosophila montana with 23 samples.

Results

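Expression of the muscle and actin cytoskeleton genes Act_42A, Mhc and sls was followed over the adult life of Drosophila montana females, in and out of reproductive diapause. The genes were taken from the array by name, and each was read from its brightest probe, the one with the highest mean log2 intensity over all arrays except 7ND replicate c. They make up 3 of the 218 genes measured. The array carries 12 probes for Act_42A, 6 for Mhc and 16 for sls among 1850 gene probes. All arrays held whole females of a single strain, 175OJ8, and each array held the RNA of a pair of pooled flies, so that a level stands for the whole body. The diapause groups were 7D (7 days old, autumn conditions, at the start of diapause), 50D (50 days, autumn, diapause under way), 150D (150 days, winter, still in diapause) and 220D (220 days, spring, diapause ending but ovaries not yet yolky). The 250D females (250 days, spring) had overwintered in diapause but had mature ovaries when sampled. The non-diapausing groups were 7ND (7 days, summer, ovaries starting to grow), 50ND (50 days, summer, mature ovaries) and 150ND (150 days, winter, mature ovaries kept over the cold period). Diapause and season go together at 7 and 50 days, where autumn and summer conditions cannot be told apart from diapause itself. The 150-day groups shared conditions from early September on. In the first days of adult life, 150D had been kept in diapause-inducing and 150ND in diapause-inhibiting conditions. The 7ND and 50ND females had entered the climate chamber in July conditions. Every group had 3 arrays, apart from 7ND with 2.

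Muscle contracts when myosin heads pull on actin filaments inside the sarcomere. Mhc encodes the muscle myosin heavy chain, the motor that forms the thick filaments. The gene sls (sallimus) encodes titin-like proteins that tie the thick filaments to the Z-disc and set the stiffness of insect muscle. Act_42A encodes a cytoplasmic actin of the general cytoskeleton in D. melanogaster, used in most cells and not a muscle marker in the strict sense. Actin genes are near-identical copies of each other in sequence, and RNA of other actins may bind the same probes, which was not tested. In whole flies, fewer muscle cells and less RNA per muscle cell cannot be told apart.

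Each value below is a quantile-normalized log2 intensity, so that a step of 1 is a doubling, and because probes differ in brightness, the level of one gene says nothing about its amount of RNA relative to another gene. The probes of all 3 genes were well above background on all 23 arrays, and no spot was saturated. One array stood apart. On 7ND replicate c, 98.5% of the 14800 gene spots were well above background, against 59.5% to 90.1% on the other arrays. The R2 of spike-in signal on spike-in amount was 0.660 on it, against 0.991 to 0.998 elsewhere. In the authors' own table the column of this sample had r = 0.698 with its own scan, 0.973 with the scan of 7ND replicate a and 0.977, 0.978 and 0.977 with those of 7D. Whether the deposited scan is the one from which that column was made cannot be settled from these files. The values without this array and those of the authors' table are given with the results of Act_42A, Mhc and sls that use 7ND. Without replicate c the 7ND group is 1 array, which is then assumed to vary like the other groups.

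The Mhc probe had the brightest signal of the 218 genes' probes on every 7D array, with 17.31, 17.34 and 17.34 log2 units. The 7ND arrays had 16.64 (replicate a) and 17.34 (replicate c). Quantile normalization leaves no spot above 17.44, so that the 7D values and 7ND replicate c lie at the top of the scale and differences among them are compressed there. At 50 days Mhc read 15.10, 15.75 and 15.02 in 50D and 14.44, 14.21 and 14.97 in 50ND. At 150 days it read 15.69, 15.51 and 16.07 in 150D, against 14.75, 13.97 and 15.10 in 150ND. The 220D arrays had 16.20, 15.76 and 16.11, and the 250D arrays 14.90, 14.14 and 14.98. All diapausing arrays from 50 to 220 days lay above the 250D arrays, and those of 150D and 220D did not overlap with any non-diapausing array older than 7 days. How often other genes of the array separate in this way is not given, so these gaps only describe the values.

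Act_42A had 14.87, 14.92 and 14.96 in 7D and 14.13 and 14.56 in 7ND. The 7-day arrays of both kinds lay above all others except 220D replicate c. At 50 days it read 12.81, 13.24 and 13.15 in 50D and 13.14, 12.90 and 13.06 in 50ND, with the arrays of both groups intermixed. At 150 days it read 13.57, 13.40 and 13.84 in 150D, against 12.69, 13.14 and 12.36 in 150ND. The 220D arrays had 13.48, 13.33 and 14.28 and the 250D arrays 13.08, 13.13 and 13.83. In both of these spring groups replicate c stood above the other replicates.

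The titin-like gene sls varied widely among the arrays of a group. It read 11.20, 11.30 and 10.45 in 7D, against 8.55 and 10.04 in 7ND, where the higher value is that of replicate c. At 50 days it read 6.73, 8.70 and 7.76 in 50D and 7.39, 6.92 and 8.26 in 50ND. At 150 days the values were 7.77, 7.50 and 9.09 in 150D and 6.92, 5.24 and 7.65 in 150ND, so that the highest 150ND array reached into the 150D range. The 220D arrays had 8.35, 6.98 and 7.46 and the 250D arrays 8.74, 7.40 and 7.54. No group older than 7 days stood clear of the others for this gene.

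**Figure D1:**
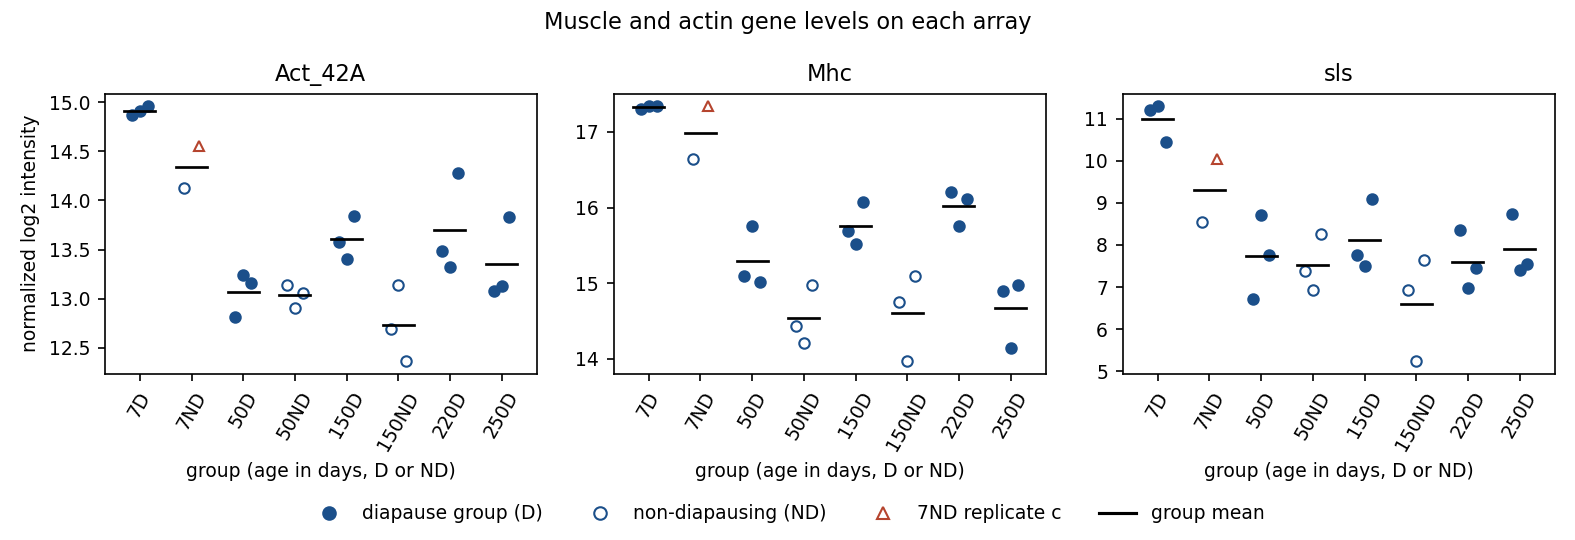
Normalized log2 intensity (vertical axis) of Act_42A, Mhc and sls on each array, with the 8 groups along the horizontal axis and a line at each group mean. Filled circles are arrays of females that were in diapause or had overwintered in it, open circles non-diapausing arrays, and the triangle 7ND replicate c. The 7D arrays are the highest group for every gene, at a mean of 14.91, 17.33 and 10.98.

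Ordered by group mean, Mhc ran from 7D (17.33) through 7ND (16.99), 220D (16.02), 150D (15.76), 50D (15.29), 250D (14.68) and 150ND (14.61) to 50ND (14.54). Act_42A ran from 7D (14.91) through 7ND (14.34), 220D (13.70), 150D (13.61), 250D (13.35), 50D (13.07) and 50ND (13.03) to 150ND (12.73). The order for sls was 7D (10.98), 7ND (9.29), 150D (8.12), 250D (7.89), 50D (7.73), 220D (7.60), 50ND (7.52) and 150ND (6.61). All 3 genes thus had their highest means in the 7-day groups, and their order after that differed from gene to gene. Pairs of groups were tested in 1 limma fit of the 8 groups, with p adjusted across all 218 genes. Among neighbours in these orders, the single pair with an adjusted p under 0.05 was 220D and 7ND for Mhc (220D over 7ND, log2 fold change -0.96 ± 0.36 SE, adjusted p = 0.0348), and this one was under 2-fold. Without 7ND replicate c this difference of Mhc was -0.60 (adjusted p = 0.286), and the authors' table gave -0.97 (adjusted p = 0.0307). Without that array 7D over 7ND passed for sls (adjusted p = 0.0317).

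The 7D level was set against that of every later group. A gene was called where its adjusted p was under 0.05 and its fold change at least 2. On the brightest probes, each of the 6 groups from 50 days on was called lower than 7D for each of the 3 genes, 18 of 18 tests. On the second brightest probes 8 of the 18 were called lower, all 6 for Mhc, 2 for sls (50D and 50ND) and 0 for Act_42A. The share of all 218 genes called lower was 10.6% in 50D over 7D, 25.7% in 50ND over 7D, 16.1% in 150D over 7D, 21.6% in 150ND over 7D, 10.1% in 220D over 7D and 17% in 250D over 7D. These comparisons share the 7D arrays, and all of them carry a difference in age. The season label differs too in all but 50D, and ovarian state in 50ND, 150ND and 250D. Day length and temperature were changed weekly, so conditions also differed between 7D and 50D within autumn. On its brightest probe sls had log2 fold changes from -4.38 ± 0.65 SE (150ND) to -2.86 ± 0.65 SE (150D). For Mhc they ran from -2.79 ± 0.32 SE (50ND) to -1.30 ± 0.32 SE (220D), and for Act_42A from -2.18 ± 0.28 SE (150ND) to -1.22 ± 0.28 SE (220D). With the arrays scaled on their 75th percentile, 50D over 7D gave -3.30 for Mhc in place of -2.04, and -2.54 for Act_42A in place of -1.85.

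The step from 7D to 50D marks the passage from the initiation to the maintenance of diapause, and the probes of each gene were compared there. Of the 1850 probes on the array, 6.97% were called lower in 50D over 7D when each was tested on its own. For Mhc, 4 of 6 probes were called lower, among them the 3 bright ones, whose log2 fold changes were -2.04, -2.07 and -1.99. These bright probes of the myosin heavy chain followed each other across arrays, with r of 0.994 or more with the brightest over 22 arrays. In 7D they lay near the top of the quantile scale and hardly varied, with 16.77 to 16.78 for the third brightest. The part of the scaling in their likeness was not tested. The other 3 were dim, with mean scanner values of 7.60 to 7.68 log2 units, and 2 of them are named as reverse complements.

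The Act_42A probes did not move as one. Of 12 probes, 6 were called lower and none higher in 50D over 7D. The brightest had -1.85 ± 0.28 SE, whereas the second brightest, at nearly the same mean scanner intensity (13.46 against 13.51 log2 units), had -0.56 ± 0.36 SE (adjusted p = 0.340 over all probes). This second Act_42A probe averaged 13.16 in 50D, 13.80 in 150D, 13.71 in 220D and 13.59 in 250D, against 13.72 in 7D. Its 150D mean was thus above that of 7D, with a log2 fold change of 0.08 ± 0.36 SE. The brightest probe averaged 13.07 in 50D, 13.61 in 150D, 13.70 in 220D and 13.35 in 250D, against 14.91 in 7D. The fourth brightest, with a mean of 11.51 log2 units, had -2.60 ± 0.27 SE, the deepest fall among the Act_42A probes. Which actin transcripts each probe reads was not tested.

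For sls, 4 of 16 probes were called lower and none higher. One of these was well above background on only 1 array. Only 6 of the 16 were well above background on every array, and 3 of those 6 were called. The next 2 in brightness after the chosen probe had -1.51 ± 0.38 SE and -1.68 ± 0.39 SE, in the same direction as the chosen probe (-3.25 ± 0.65 SE) but shallower. Outside the 7-day groups these probes of sls also gave other levels, and their r with the chosen probe was 0.511 and 0.502 over 22 arrays. The second brightest sls probe averaged 6.74 in 50D, 8.02 in 150D and 8.15 in 220D, against 8.25 in 7D, so that its 150D and 220D means differed from that of 7D by less than their standard error. The chosen probe averaged 7.73 in 50D, 8.12 in 150D and 7.60 in 220D, against 10.98 in 7D.

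**Figure D2:**
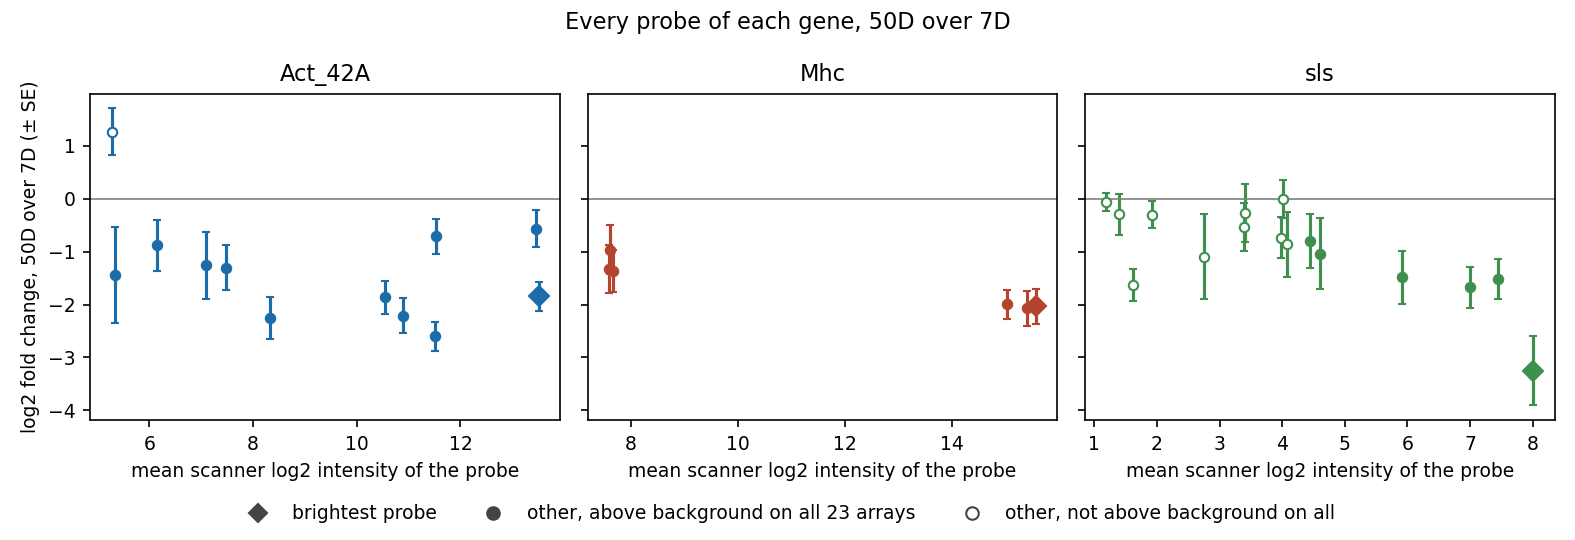
Log2 fold change in 50D over 7D with its standard error (vertical axis) for each probe, against the mean scanner log2 intensity of the probe over 22 arrays (horizontal axis), for Act_42A, Mhc and sls. The diamond is the probe that stands for the gene, and open circles are probes that were not well above background on every array. On this quantile-normalized scale, where the bright Mhc probes are near the top in 7D, they lie together near -2. The probes of Act_42A and sls spread.

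The direction of the fall from 7D to 50D held on each slide. In 50D over 7D the within-slide log2 differences were -2.06, -1.68 and -1.81 for Act_42A, -2.21, -1.59 and -2.32 for Mhc and -4.47, -2.59 and -2.69 for sls. The other genes that could mark a change of muscle or body make-up did not all move this way. The gut markers Jon25Bi and ninaD had log2 fold changes of -3.27 and -4.72 and were both called lower in 50D, whereas of the 7 ovary and maternal genes 2 were higher in 50D and 0 lower, at 11.5% of all genes called higher. Their part in the fall of Act_42A, Mhc and sls was not tested. Of the 5 neuron markers, 0 were called in this comparison. Of the 5 eye genes 1 was lower and 0 higher, at 10.6% of all genes called lower. The neuron marker para was well above background on only 10 of the 23 arrays, and the gut marker ninaD on 20.

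Whether the young females differed by diapause was asked in 7D over 7ND, the initiation of diapause. None of the 3 genes was called, at 39.4% of all genes called in either direction. The log2 fold change was 0.57 ± 0.31 SE for Act_42A (adjusted p = 0.130), 0.34 ± 0.36 SE for Mhc (adjusted p = 0.416) and 1.69 ± 0.73 SE for sls (adjusted p = 0.0616). At an unadjusted p under 0.05, 1 of the 3 passed, which was sls, against 124 of all 218 genes. Without 7ND replicate c the values were 0.79 (adjusted p = 0.0833) for Act_42A, 0.69 (adjusted p = 0.169) for Mhc and 2.49 (adjusted p = 0.0317) for sls, so that sls was then called higher in 7D. The authors' table also called sls, with 11.21, 11.31 and 10.44 in 7D, against 8.50 and 9.81 in 7ND, and a log2 fold change of 1.83 (adjusted p = 0.0466). It gave Act_42A 0.70 (adjusted p = 0.0693) and Mhc 0.40 (adjusted p = 0.332).

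With 7ND replicate c kept, the outcome at 7 days depended on the scaling. The median spot intensity of that array was 530, against 19.4 to 49.7 on the others. With each array scaled on its 75th percentile, all 3 genes were called higher in 7D, beside 77 of all 218 genes. The values were 2.64 for Act_42A, 2.80 for Mhc and 2.58 for sls. Scaling on the spike-in probes called Act_42A (1.77) and Mhc (1.93) but not sls (1.70), beside 23 of all 218 genes called higher. With no normalization none of the 3 was called. Under the spike-in scaling the median of all 218 genes lay 0.81 lower than under the quantile one, and with no normalization it lay 2.08 lower. The choice of probe mattered as well, since the second brightest probes gave 0.10 for Act_42A, 0.47 for Mhc and 0.63 for sls, none of them called.

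**Figure D3:**
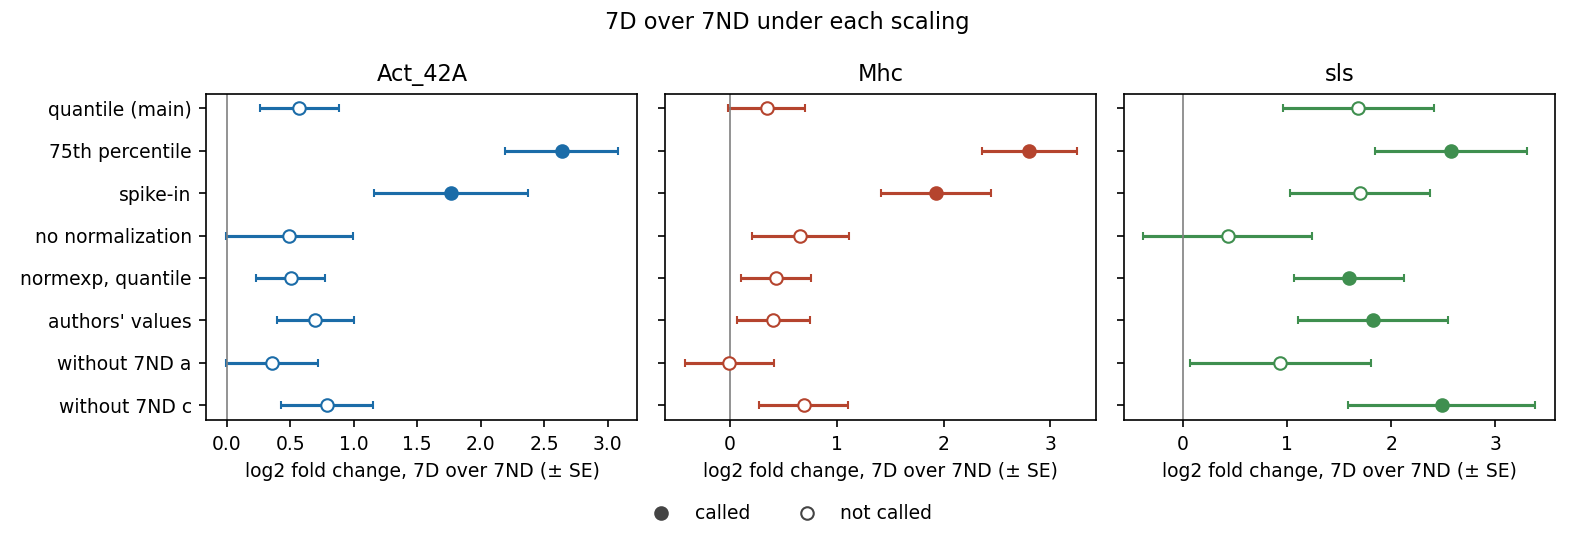
Log2 fold change in 7D over 7ND with its standard error (horizontal axis) for Act_42A, Mhc and sls under 8 ways of scaling or of choosing the arrays (rows). Filled circles were called and open ones were not. Scaling on the 75th percentile gives 2.58 to 2.80 and calls all 3 genes, with 77 of all 218 genes called higher. Quantile normalization gives 0.34 to 1.69 and calls none of them, with 56 of all 218 genes called higher. Both keep 7ND replicate c.

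Non-diapausing females also had lower levels at 50 days than at 7 days. Age, ovarian state and the weekly change of day length and temperature go together here and cannot be told apart. In 50ND over 7ND, Mhc was lower by a log2 fold change of -2.45 ± 0.36 SE (adjusted p = 0.000465) and Act_42A by -1.31 ± 0.31 SE (adjusted p = 0.0224), at 8.72% of all genes called lower. That share was 0.459%, a single gene, without 7ND replicate c and without 50ND replicate a or b. The value for sls was -1.77 ± 0.73 SE and was not called (adjusted p = 0.0596). Without 7ND replicate c Mhc was still called, at -2.08 (adjusted p = 0.0219), whereas Act_42A had -1.09 (adjusted p = 0.417) and sls -1.05 (adjusted p = 0.940). The Act_42A call was also lost without 50ND replicate a (-1.37, adjusted p = 0.0531) or b (-1.24, adjusted p = 0.0569), and sls was called without 7ND replicate a (-2.51, adjusted p = 0.0154). With the 75th percentile, Act_42A had -0.24 and was not called, and Mhc was called at -1.41. In the authors' table Act_42A (-1.16) and Mhc (-2.30) were called lower. The mean of the Act_42A probes not named as reverse complement was 0.062, with its sign turned. This mean leaves out the brightest Act_42A probe, which is itself named as reverse complement.

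The difference between diapausing and non-diapausing females at 50 days, minus that at 7 days, was tested directly. It was -0.54 ± 0.42 SE for Act_42A, 0.41 ± 0.48 SE for Mhc and -1.48 ± 0.97 SE for sls. None of these passed an adjusted p of 0.05 in limma, at 8.72% of all genes called. None had an unadjusted p under 0.05, against 77 of all 218 genes. Without 7ND replicate c the values were -0.75 for Act_42A, 0.062 for Mhc and -2.27 for sls, and in the authors' table -0.66, 0.30 and -1.61, none of them called. The median over all 218 genes was -0.40, and 0.13 without that array. The sign for Mhc turned with the scaling, to -1.89 on the 75th percentile, where it was called, and to -1.33 on the spike-in probes.

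At 50 days, when one group was in diapause and the other had mature ovaries, the 3 genes did not pass the test. In 50D over 50ND, Mhc had a log2 fold change of 0.75 ± 0.32 SE (adjusted p = 0.0820), Act_42A 0.03 ± 0.28 SE (adjusted p = 0.910) and sls 0.21 ± 0.65 SE (adjusted p = 0.818), at 28.4% of all genes called in either direction. The Mhc arrays of 50D lay above those of 50ND with no overlap, but how often other genes separate in this way is not given. Of the 3 genes 1, Mhc, had an unadjusted p under 0.05 in limma, against 90 of all 218 genes. Within slides the 50D minus 50ND difference of Mhc was 0.66, 1.54 and 0.05.

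From 50D to 150D the flies went into the cold and dark of winter, and all 3 genes had somewhat higher means. In 150D over 50D, Act_42A had a log2 fold change of 0.54 ± 0.28 SE, Mhc 0.47 ± 0.32 SE and sls 0.39 ± 0.65 SE. None was called, at 6.88% of all genes, and 0 of the 3 had an unadjusted p under 0.05. With spike-in scaling the signs of all 3 turned, to -0.71, -0.35 and -0.43, in a setting that moved the median of all genes by -0.87. In non-diapausing females, 150ND over 50ND gave -0.30 ± 0.28 SE for Act_42A, 0.06 ± 0.32 SE for Mhc and -0.92 ± 0.65 SE for sls. Again none was called, at 11% of all genes, and 0 of the 3 had an unadjusted p under 0.05. The sls value in 150ND rested largely on replicate b, whose 5.24 was the lowest sls reading on any array, and without it the value was -0.23.

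Overwintering females were compared at the same age and in the same winter conditions in 150D over 150ND. Their rearing in the first days of adult life differed, and cannot be told apart from diapause. Mhc was called higher in 150D, at 1.15 ± 0.32 SE (adjusted p = 0.0250), at 5.5% of all genes called higher. That share was 2.29% without 150ND replicate a, 3.21% without b and 9.17% without c. Act_42A had an adjusted p of 0.0479 but a log2 fold change of 0.88 ± 0.28 SE, under the 2-fold minimum. The value for sls was 1.52 ± 0.65 SE (adjusted p = 0.151). Within slides the difference of Mhc was 0.97, 0.94 and 1.54, that of Act_42A 1.48, 0.89 and 0.26, and that of sls 1.44, 0.85 and 2.26, all above 0. The myosin call depended on single arrays. It was lost without 150D replicate a (1.18, adjusted p = 0.0549) or c (0.98, adjusted p = 0.131) and without 150ND replicate a (1.21, adjusted p = 0.0595) or b (0.84, adjusted p = 0.150).

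Leaving out an array could also add a call in 150D over 150ND. Without 150ND replicate b, Act_42A was called, at 1.08 (adjusted p = 0.0445). Without 150ND replicate c, Mhc had 1.41 (adjusted p = 0.00636) and sls 2.04 (adjusted p = 0.0481), and both were called. The 150ND females had mature ovaries, and of the 7 ovary and maternal genes 4 were lower in 150D and 0 higher, at 4.59% of all genes called lower. Their summed normalized intensity was 16104 to 19230 in 150D, against 69331 to 200377 in 150ND, and all 7 were above background on every array. Such a sum weighs the brightest genes most. Without the heat shock gene Hsp26 their mean level was 9.46 to 9.70 log2 units in 150D, against 9.66 to 11.01 in 150ND, with overlapping ranges. The part of the ovary in the difference of Mhc was not tested. The difference between diapausing and non-diapausing females at 150 days, minus that at 50 days, was 0.84 ± 0.39 SE for Act_42A, 0.40 ± 0.46 SE for Mhc and 1.31 ± 0.92 SE for sls. None passed an adjusted p of 0.05, at 4.13% of all genes called. The unadjusted p of limma was under 0.05 for 1 of the 3 genes, Act_42A, whose adjusted p was 0.361. It was so for 28 of all 218 genes.

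At the end of diapause, Mhc was the one gene of the 3 that passed the test. In early spring it had 0.27 ± 0.32 SE in 220D over 150D, where Act_42A had 0.09 ± 0.28 SE and sls -0.52 ± 0.65 SE. None of these was called, at 5.05% of all genes, and 0 of the 3 had an unadjusted p under 0.05. By 250 days the ovaries had matured, and Mhc fell in 250D over 220D by a log2 fold change of -1.35 ± 0.32 SE (adjusted p = 0.00451), at 13.3% of all genes called lower. Within slides the 250D minus 220D differences of Mhc were -1.62, -1.13 and -1.30. The call held when any one array was left out, with values from -1.51 to -1.08.

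Act_42A and sls gave -0.35 ± 0.28 SE (adjusted p = 0.382) and 0.30 ± 0.65 SE (adjusted p = 0.775) in 250D over 220D. The sign of Act_42A turned with the scaling, to 0.21 on the 75th percentile, 0.39 on the spike-in probes and 0.43 with no normalization. The Mhc call was lost on the spike-in probes (-0.91, adjusted p = 0.181) and with no normalization (-0.87, adjusted p = 0.124). Of the ovary and maternal genes, 3 of 7 were higher in 250D and 0 lower, at 8.72% of all genes called higher. Their summed intensity, which weighs the brightest genes most, was 87217 to 189204 in 250D, against 12423 to 17964 in 220D. Without Hsp26 their mean level was 10.21 to 10.51 log2 units in 250D, against 9.50 to 9.53 in 220D. Both gut markers were called higher in 250D, with a mean level of 11.54 to 12.10 log2 units in 250D, against 8.82 to 9.84 in 220D. Of the 5 eye genes 2 were lower in 250D and 0 higher, with a mean level of 9.59 to 10.20 in 250D, against 10.35 to 10.94 in 220D. The part of ovary, gut and eye in the fall of Mhc was not tested.

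The 250D females were also set against 50ND, which had mature ovaries without a winter behind them. In 250D over 50ND, Act_42A had a log2 fold change of 0.32 ± 0.28 SE, Mhc 0.13 ± 0.32 SE and sls 0.37 ± 0.65 SE, with overlapping arrays for each gene. In limma, none of the 3 genes was called, and 0% of all genes were, whereas 14 of the 218 genes and 0 of the 3 had an unadjusted p under 0.05. The summed intensity of the ovary and maternal genes was 87217 to 189204 in 250D and 192105 to 197420 in 50ND. Without Hsp26 their mean level was 10.21 to 10.51 log2 units in 250D and 10.56 to 10.87 in 50ND.

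**Figure D4:**
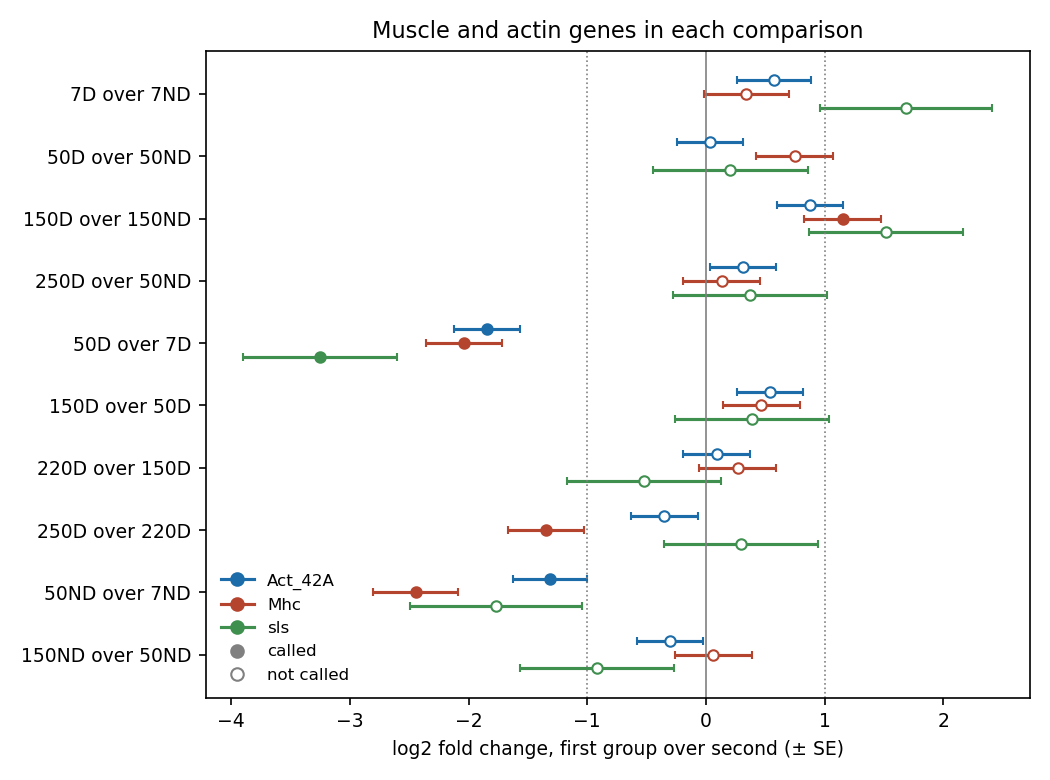
Log2 fold change of the first group over the second, with its standard error (horizontal axis), for Act_42A, Mhc and sls in 10 comparisons (rows). Filled circles were called, open ones were not, and dotted lines mark 2-fold. All 3 genes are called lower in 50D over 7D, Mhc and Act_42A in 50ND over 7ND, Mhc also in 250D over 220D, and Mhc alone is called higher in 150D over 150ND.

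Which of the other genes on the array ran most like these 3 was described by Pearson's r of normalized log2 intensity over 22 arrays, all but 7ND replicate c. The 7D arrays were high for every one of the 3 genes, and 7ND replicate a for Act_42A and Mhc. For sls, 7ND replicate a (8.55) lay within the range of later arrays. Such high arrays weigh heavily in every r, and so the values are a description. Act_42A was most like sisA (r = 0.869), Mhc (0.845), Atp-alpha (0.843), Pka-C1 (0.800) and Amph (0.793). In D. melanogaster, sisA is a transcription factor of sex determination, Atp-alpha the sodium pump, Pka-C1 the catalytic subunit of protein kinase A and Amph (amphiphysin) a membrane-bending protein of the tubules of flight muscle. For Act_42A, sls came seventh with r = 0.756.

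Mhc was most like Amph (r = 0.847), sisA (0.846), Act_42A (0.845), b (0.836) and inaD (0.833), where b is an aspartate decarboxylase of cuticle tanning and inaD a scaffold of the light response. The neighbours of sls were Acon (r = 0.911), Hsp20 (0.902), sisA (0.900), Pgm (0.858) and b (0.852). Acon is the aconitase of the citric acid cycle, Hsp20 a small heat shock protein and Pgm phosphoglucomutase, an enzyme of glycogen and sugar use. With each other, Mhc and sls had r = 0.831. The median r over the 217 other genes was -0.06 for Act_42A, 0.01 for Mhc and -0.10 for sls. By Spearman's rho the first neighbour was the same for Act_42A (sisA) and for Mhc (Amph), and for sls it was Hsp20 (rho = 0.872).

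Other genes of muscle and its fuel supply were read from lists, beside the share of all genes called in the same direction. Flight muscle burns sugar, and of the 8 enzymes of sugar breakdown and muscle fuel, 5 were lower in 50D than in 7D and 0 higher, against 10.6% of all genes lower, with a median log2 fold change of -1.25, against 0.21 over all 218 genes. The steepest falls were in the glyceraldehyde phosphate dehydrogenases Gapdh2 (-2.18 ± 0.30 SE) and Gapdh1 (-1.86 ± 0.29 SE) and in Acon (-1.51 ± 0.37 SE). Like Mhc, Act_42A and sls, they were high in 7D. Between the later diapause groups this list gave 0 calls in 150D over 50D and 0 in 220D over 150D. In 7D over 7ND, 2 of the 8 were higher, Acon (2.06 ± 0.42 SE) and the trehalose-splitting enzyme Treh (1.84 ± 0.54 SE), close to the 25.7% of all genes called higher there. Without 7ND replicate c the median of the 8 was 1.04, against 0.050 over all genes. From the authors' values only Acon was called higher, beside 20 of all 218 genes, and the median of the 8 was 0.81, against 0.053 over all genes.

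The list of muscle membrane, matrix attachment and actin-linked genes gave other counts. Of its 9 genes, 1 was higher in 50D than in 7D and 0 lower, near the 11.5% of all genes called higher, with a median of 0.44. The one was scb, an integrin subunit, at 1.32 ± 0.42 SE, in the comparison in which Mhc, sls and Act_42A all fell. In 50D over 50ND, where none of the filament genes was called, 5 of the 9 were higher and 0 lower, against 17.9% of all genes called higher, with a median of 1.14, against 0.13 over all genes. The 3 with the largest change were the laminin chain LanA (1.78 ± 0.50 SE), l(2)efl, a small heat shock protein found at the Z-disc (1.56 ± 0.34 SE), and scb (1.54 ± 0.42 SE). In 250D over 220D, 2 of the 9 were lower along with Mhc, namely shi (dynamin, -1.76 ± 0.35 SE) and stv (starvin, a co-chaperone of muscle, -1.65 ± 0.55 SE), beside 13.3% of all genes called lower. With 7ND replicate c kept, the highest count for this list was in 7D over 7ND. There 6 of the 9 were higher and 0 lower, against 25.7% of all genes called higher. Their median was 1.67, against 0.61 over all genes. The mean level of the 9 was 6.11 log2 units on 7ND replicate c and 8.22 on 7ND replicate a. Without 7ND replicate c the median of the 9 was 0.61, against 0.050 over all genes. From the authors' values only Amph was called higher, beside 20 of all 218 genes, and the median of the 9 was 0.63, against 0.053 over all genes. Of the 4 genes of calcium and calmodulin signalling, 0 were called in 50D over 7D, 150D over 150ND and 250D over 220D.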

How the data were processed

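RNA of 23 whole-female samples had been labelled with Cy3, hybridized singly to a custom Agilent array and read with Agilent Feature Extraction 10.7.1.1. The deposited scanner files hold background-subtracted spot intensity on a linear scale, not normalized between arrays, with the median signal and background intensity and other columns of flags. The authors' deposited table holds quantile-normalized intensity per probe (limma), and its probes were matched by sorted name. Here log2 intensity of the 14800 gene spots was quantile-normalized, the 8 spots of a probe were averaged without outlier flags, and the brightest probe stood for each of the 218 of 219 listed genes with a probe. All 23 arrays entered 1 fit of group means (lmFit and eBayes of limma 3.58.1 under R 4.3.3), with Benjamini-Hochberg adjustment. Calls needed an adjusted p under 0.05 and, except for differences of differences, 2-fold. The number of arrays limits the precision.

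Groups and replicate letters came from the labels, which call the replicates biological. Letters were not taken to pair samples, since the correlation of deviations between arrays of the same letter had a median of 0.10 and ran from -0.49 to 0.60 over the comparisons. Slides were numbered 1 to 3 and held 1 array of each group, but the third held no 7ND array. The 3 genes, the gene lists, the markers and the tests were chosen with earlier results of these data known. The named genes were these 3, the 5 most alike for each and up to 3 called genes of a list by size of change. The alternatives were other scalings (75th percentile, 7 spike-in probes, none), the authors' table, normexp with an offset of 50, the mean of all probes or of those not named as reverse complement, each probe alone, no minimum fold, dim probes left out, slide or replicate letter as a block, only the groups compared and each array left out. The second brightest probe, 220D and 250D replicate c left out together, and the settings of the tests over 7D, are alternatives chosen after seeing the data. The procedure was tested on simulated data. Probe sequences were not used here.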

Additional observations from a re-analysis of the deposited data

How the results depend on the processing

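In 50D over 7D all 3 genes were called lower under every scaling, block and left-out array. The exceptions were the means over probes, which left sls uncalled (-0.97 over all probes), and the second brightest probe, which left Act_42A uncalled (-0.56). Of the 18 tests of later groups over 7D, 18 were called lower under each scaling, block and left-out array, but 9 with the mean of all probes, 8 with the mean of probes not named as reverse complement and 8 with the second brightest probe, alternatives run after seeing the data. Elsewhere the number of the 3 genes called changed. In 7D over 7ND, 0 were called, but 3 on the 75th percentile, 2 with spike-in scaling, and 1 in the authors' table, with normexp, with the mean of probes not named as reverse complement and with the replicate block (sls, 1.86). In 50ND over 7ND, 2 were called, but 1 on the 75th percentile, with either mean of probes and with the second brightest probe, and 0 with spike-in scaling and in the fit of only the groups compared. In 150D over 150ND, 1 was called, but 0 with the mean of all probes, no normalization, spike-in scaling and only the groups compared, and 2 with no minimum fold. In 250D over 220D, 1 was called, but 0 with the mean of all probes, no normalization and spike-in scaling. One was called in 150D over 50D with the second brightest probe (sls) and in 150ND over 50ND with spike-in scaling (sls). In the difference of diapause effects between 50 and 7 days, 2 were called on the 75th percentile and 1 with the mean of probes not named as reverse complement. Leaving out an array gave 0 to 2 calls in 150D over 150ND, 1 to 3 in 50ND over 7ND and 0 to 1 in 7D over 7ND, and no other comparison changed its number. The replicate block changed no other number of calls. Without 220D and 250D replicate c together Mhc had -1.47 in 250D over 220D and stayed called. The cause of these changes was not tested.

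Signs turned for values near 0 in most cases, and also for called values of Act_42A and Mhc where the probe was changed. With no normalization Act_42A had -0.27 in 150D over 50D, -0.11 in 220D over 150D and 0.43 in 250D over 220D, and Mhc -0.19 in 150ND over 50ND. With spike-in scaling Act_42A had -0.71 in 150D over 50D, -0.11 in 220D over 150D, 0.39 in 250D over 220D and -0.40 in 250D over 50ND. With the same scaling Mhc had -0.35 in 150D over 50D, -0.93 in 150ND over 50ND, -0.59 in 250D over 50ND and -1.33 in the 50 minus 7 day difference, and sls had -0.43 in 150D over 50D and -0.65 in 250D over 50ND. On the 75th percentile Mhc had -0.035 in 150ND over 50ND and -1.89 in the 50 minus 7 day difference, and Act_42A 0.21 in 250D over 220D. The second brightest probe gave sls 0.25 in 150ND over 50ND, 0.14 in 220D over 150D, -0.80 in 250D over 220D and -0.40 in 50D over 50ND, and Act_42A -0.086 in 220D over 150D. The mean of probes not named as reverse complement gave Act_42A -0.0064 in 220D over 150D, -0.10 in 50D over 50ND and 0.062 in 50ND over 7ND. It gave sls -0.25 in 250D over 220D, -0.079 in 250D over 50ND and -0.083 in 50D over 50ND, and Mhc -0.22 in the 50 minus 7 day difference. The mean of all probes gave sls -0.26, -0.010 and -0.15 in the same 3 comparisons and Mhc -0.32 in that difference. Of the probes tested alone, 1 dim Act_42A probe had 1.27 in 50D over 7D and 1.82 in 50ND over 7ND, and 4 others had 1.01, 0.42, 0.38 and 1.67 in 50ND over 7ND. Dim Mhc probes had 0.45 and 0.18 there. With an array left out, values crossed 0 for sls in 150D over 50D (-0.11 to 0.87), 250D over 220D (-0.13 to 0.68), 250D over 50ND (-0.055 to 0.74) and 50D over 50ND (-0.28 to 0.71). They did so for Mhc in 150ND over 50ND (-0.18 to 0.38), 250D over 50ND (-0.031 to 0.40) and 7D over 7ND (-0.0095 to 0.69), and for Act_42A in 220D over 150D (-0.20 to 0.27) and 50D over 50ND (-0.048 to 0.16).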
